A study of Mus musculus with 6 samples.

Results

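AP-1 is a family of transcription factors, among them the FOS, JUN and ATF types, that bind DNA as pairs. The genes described here are 8 of its members: Fos, Fosb, Fosl1, Fosl2, Jun, Junb, Jund and Atf3. They were taken by gene name from the 54551 genes of the deposited tables. Each name occurred once, and all 8 genes passed the filter for testing. It asked for more than 1 FPKM (reads scaled to exon length and to a total for the library) in at least 3 libraries. RNA came from granulosa cells, the steroid-making cells around the oocyte in ovarian follicles, of C57BL/6 mice on postnatal day 21. Both genotypes were taken 6 h after hCG (5 IU), which acts like luteinizing hormone (LH) and triggers ovulation. The mice had been primed for 48 h with PMSG (5 IU), which makes follicles grow. By their labels 3 libraries are wild type and 3 are Gm12840-/-, a knockout of a long noncoding RNA gene. They are called wild type 1 to 3 and knockout 1 to 3 here, as names of libraries and not as a finding. No untreated or earlier time point is used, and nothing in the labels ties a library to its own animal, so p-values cover only the spread between these samples, which may be technical.

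FOS proteins pair with JUN proteins through a leucine zipper, whereas JUN proteins can also pair with each other, and the dimers bind AP-1 and cAMP response elements in promoters and enhancers. The genes are early-response genes: ERK, JNK and cAMP signalling switch them on through SRF, CREB and AP-1 itself, and many of their transcripts are short-lived. In granulosa cells the LH surge raises cAMP and ERK activity, and among the AP-1 genes Fosl2 and Jund are known for persisting in luteinized cells.

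The regions just upstream of the genes are shown because cAMP and AP-1 signals are known to act in part through elements there. They were taken from RefSeq promoter windows (GRCm38.p6), which held 7 of the 8 members, without Fosl1. The 250 bases before the start are shown for the 4 genes whose RefSeq start lay within 50 bases of the deposited gene start. Capitals mark TGACG, the core of a cAMP response element (its reverse, CGTCA, did not occur in these 4 windows), and TGACATCA, the element known from the Jun promoter.
Fos, chr12:85473640-85473889, plus strand: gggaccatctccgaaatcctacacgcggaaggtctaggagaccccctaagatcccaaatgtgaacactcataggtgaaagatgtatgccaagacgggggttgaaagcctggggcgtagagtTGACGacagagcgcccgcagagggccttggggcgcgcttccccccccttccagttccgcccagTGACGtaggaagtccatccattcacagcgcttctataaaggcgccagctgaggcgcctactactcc
Fosb, chr7:19310046-19310295, minus strand: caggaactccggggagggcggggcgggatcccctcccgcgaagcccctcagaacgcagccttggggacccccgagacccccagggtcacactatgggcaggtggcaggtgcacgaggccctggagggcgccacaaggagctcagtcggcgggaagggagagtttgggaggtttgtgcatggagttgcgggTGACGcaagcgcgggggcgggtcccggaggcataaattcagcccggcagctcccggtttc
Junb, chr8:84978749-84978998, minus strand: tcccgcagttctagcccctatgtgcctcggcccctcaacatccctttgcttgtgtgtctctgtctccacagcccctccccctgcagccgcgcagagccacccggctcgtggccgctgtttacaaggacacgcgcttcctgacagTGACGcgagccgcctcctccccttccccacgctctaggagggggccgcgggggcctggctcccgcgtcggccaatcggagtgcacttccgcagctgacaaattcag
Jun, chr4:95052223-95052472, minus strand: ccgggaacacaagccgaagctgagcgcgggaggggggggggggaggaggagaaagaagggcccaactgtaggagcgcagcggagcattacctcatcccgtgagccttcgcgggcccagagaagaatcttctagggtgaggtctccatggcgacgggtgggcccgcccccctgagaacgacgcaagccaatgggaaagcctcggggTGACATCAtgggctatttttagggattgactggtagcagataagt
On either strand, TGACG was found in 4 of the 7 windows (Fos, Fosb, Junb and Atf3), against 17.8% of 32851 RefSeq windows of this length. In Fos it began 66 and 129 bases before the start, in Fosb 60 and in Junb 106. TGACATCA was found in 1 of the 7, 45 bases before the Jun start, against 2.93% of all windows. The whole element TGACGTCA, which contains TGACG, and the AP-1 consensus TGANTCA were found in 0 of the 7, against 1.55% and 6.75% of all windows. These matches are descriptions of letters, and a window of 250 bases leaves out elements farther away. The RefSeq start of Atf3 lay 34706 bases, that of Jund 1210 bases and that of Fosl2 671 bases from the deposited gene start, so their windows are not shown.

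Transcript ends of early-response genes often carry ATTTA, the core of AU-rich elements that are known to speed the decay of RNA. In the longest 3' UTR of each member in GENCODE M21, Fos held 4 copies in 815 bases and Jun 4 in 1233. Of genes with a 3' UTR within 20% of that length, 12.2% held as many or more than Fos, and 26.0% as many or more than Jun. Junb held 2 copies in 485 bases, Atf3 3 in 1186 and Fosl2 8 in 4653, while Fosb, Fosl1 and Jund held 1 each. The longer form TTATTTATT occurred once in Fos, against 4.33% of genes of like length holding it, and once in Fosl2, against 19.8%.

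Depth recovered from the deposited values ran from 16392098 to 19465847 reads per library. Within each label, every pair of libraries differed beyond sampling noise, so none was taken for a second copy. The targeted gene, Gm12840, stood at 1.83, 0.566 and 0.365 FPKM in wild type 1 to 3 and at 0.426, 0.611 and 1.45 FPKM in knockout 1 to 3. These are 5 to 17 reads per library, and no difference between the labels was detectable (log2 fold change -0.03, 95% interval -0.91 to 0.84, adjusted p = 0.988 by limma without the filter). The targeted gene thus did not check the labels, and every direction below rests on them alone. All 10 markers of granulosa cells passed the filter, and their summed level ran from 6359 to 12252 FPKM under the wild-type label and from 4570 to 9441 FPKM under the knockout label. Reads from the mitochondrial chromosome made up 0.146%, 0.227% and 0.311% of the total in knockout 3, wild type 1 and wild type 2. They made up 1.52%, 2.08% and 4.19% in knockout 1, wild type 3 and knockout 2, so the label does not divide the libraries by this measure.

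Junb, Fos and Jun were among the most abundant transcripts of these cells 6 h after hCG: among protein-coding genes they ranked 31 to 146, 15 to 258 and 23 to 206 over the 6 libraries. Fosb ranked 36 to 593, and the other 4 members ranked lower. Together the 8 genes took 0.374%, 0.634% and 1.00% of all reads in wild type 1 to 3. In those labelled knockout 1 to 3 they took 0.837%, 1.10% and 0.387%. On the FPKM scale, which divides by exon length, Junb, Fos, Jun and Fosb had means over 6 libraries of 649, 581, 515 and 295 FPKM. Atf3 and Jund had means of 69.6 and 67.8 FPKM, and Fosl2 and Fosl1 of 30.0 and 8.80 FPKM.

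**Figure D1:**
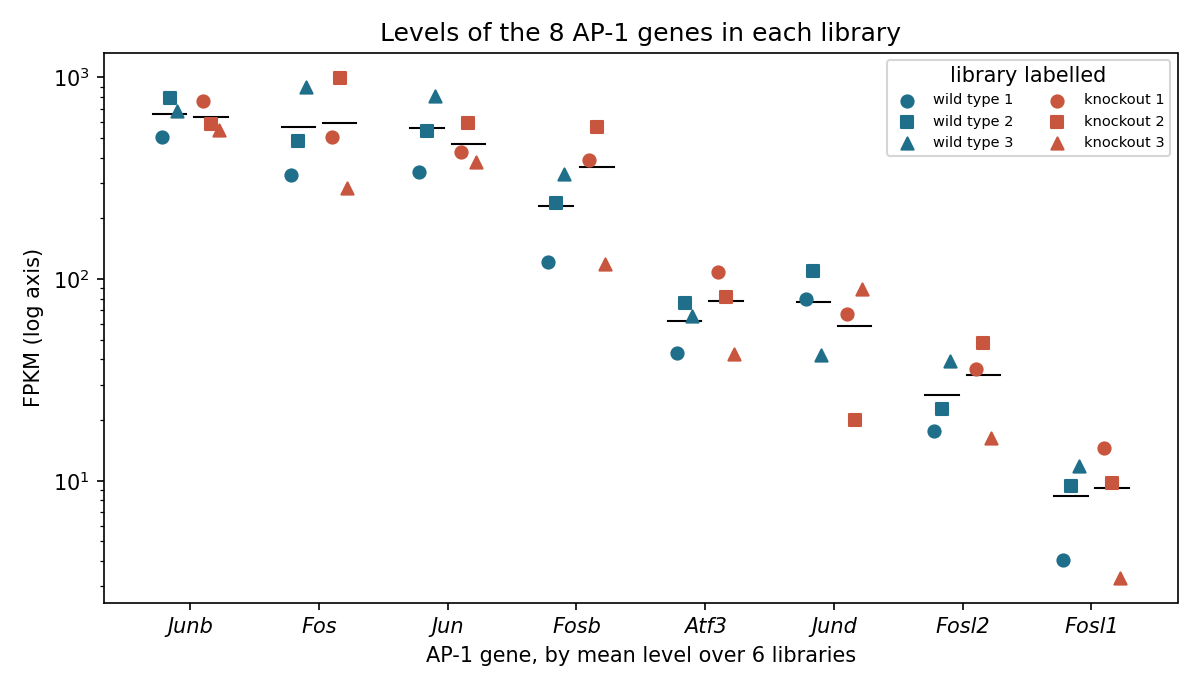
FPKM (log axis) of each AP-1 gene in each library, with genes ordered by mean level, 1 point per library and black lines at the means of the 3 libraries of each label. Points of both labels overlap for every gene, and Junb has the narrowest range, from 508 to 794 FPKM.

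Of the JUN family, Junb (ENSMUSG00000052837, chromosome 8, 84974484 to 84978718 in mm10, minus strand) codes for a JUN protein that activates transcription less strongly than JUN and can hold it back. It stood at 508, 794 and 681 FPKM in wild type 1 to 3 and at 768, 591 and 551 FPKM in knockout 1 to 3. Its highest and lowest values lay in wild type 2 and wild type 1, 1.56-fold apart. Among protein-coding genes of a library it ranked between 31 and 146. Of its exon bases, 7.52% are shared with Prdx2 on the opposite strand (125 to 544 FPKM). The strand setting is not given in the sources used here, so reads in that stretch may stem from either gene.

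Jun (ENSMUSG00000052684, chromosome 4, 95049034 to 95052222, minus strand), the founding member of the family, is a gene of 1 exon. It stood at 339, 542 and 809 FPKM in wild type 1 to 3 and at 425, 596 and 379 FPKM in knockout 1 to 3. The highest value was that of wild type 3, and the 2 lowest came from wild type 1 and knockout 3. The ratio of Junb to Jun was 1.45 to 1.81 in 4 libraries, but 0.841 in wild type 3 and 0.991 in knockout 2.

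Jund (ENSMUSG00000071076, chromosome 8, 70698949 to 70700616, plus strand), the broadly expressed member that depends least on acute signals, also has 1 exon. It stood at 79.4, 109 and 42.3 FPKM in wild type 1 to 3 and at 66.9, 19.9 and 89.0 FPKM in knockout 1 to 3. It was lowest in knockout 2 and wild type 3, the 2 libraries where Fos was highest, and its range of 5.48-fold was the widest of the 8 genes. An antisense gene, Gm11175, shares 52.6% of the exon bases of Jund and was listed at 0 in all 6 libraries. The sources used here do not say how reads over both genes were counted, so the level of Jund is uncertain, and its rank below Jun and Junb with it.

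Fos (ENSMUSG00000021250, chromosome 12, 85473890 to 85477273, plus strand) is the prototype of the immediate early genes. It stood at 330, 481 and 893 FPKM in wild type 1 to 3 and at 508, 993 and 282 FPKM in knockout 1 to 3. In knockout 2 it ranked 15 among protein-coding genes and in knockout 3 it ranked 258. The lowest and the highest value both carried the knockout label.

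Fosb (ENSMUSG00000003545, chromosome 7, 19302696 to 19310051, minus strand) codes for FOSB and, through splicing, for a shorter stable form, which gene-level values do not separate. It stood at 121, 238 and 332 FPKM in wild type 1 to 3 and at 392, 570 and 118 FPKM in knockout 1 to 3. Knockout 3 and wild type 1 were nearly equal, and knockout 2 was 4.81-fold above knockout 3. The ratio of Fosb to Fos was 0.367, 0.494 and 0.371 in wild type 1 to 3 and 0.770, 0.573 and 0.419 in knockout 1 to 3, so the labels overlapped.

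Fosl2 (ENSMUSG00000029135, chromosome 5, 32135801 to 32157842, plus strand) codes for FRA2, which lacks the strong activation domain of FOS. It stood at 17.7, 22.7 and 39.2 FPKM in wild type 1 to 3 and at 35.7, 48.0 and 16.3 FPKM in knockout 1 to 3. Its 3 highest libraries were knockout 2, wild type 3 and knockout 1, the same 3 as for Fos and Fosb. Fosl1 (ENSMUSG00000024912, chromosome 19, 5447703 to 5455945, plus strand), which codes for FRA1, stood at 4.06, 9.39 and 11.8 FPKM and at 14.5, 9.74 and 3.31 FPKM in the same order. The lowest of these rests on 87 reads, with an exact Poisson 95% interval of 2.65 to 4.08 FPKM that covers counting error only. This interval overlaps that of wild type 1 (3.32 to 4.93 FPKM), and it lies below those of the other 4 libraries.

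Atf3 (ENSMUSG00000026628, chromosome 1, 191170296 to 191218039, minus strand) codes for a stress-induced factor that pairs with JUN proteins and often represses. It stood at 43.0, 76.3 and 65.6 FPKM in wild type 1 to 3 and at 109, 81.7 and 42.4 FPKM in knockout 1 to 3. Knockout 3 and wild type 1 were again lowest, and knockout 1 was highest.

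The order of the levels was tested in all 28 pairs of genes by an exact sign-flip permutation test of within-library differences of log2(FPKM + 1), two-sided and adjusted by Benjamini-Hochberg. In 23 pairs the difference passed, each at an adjusted exact p of 0.038, and the gene with the higher mean was higher in 6 of 6 libraries. With 6 libraries no p can be under 0.031. Junb exceeded Fos in 4 of 6 libraries (mean log2 difference 0.29 ± 0.69, SD, n = 6, adjusted exact permutation p = 0.370). Fos exceeded Jun in 3 of 6 (0.08 ± 0.40, adjusted exact permutation p = 0.713) and Junb exceeded Jun in 4 of 6 (0.38 ± 0.42, adjusted exact permutation p = 0.146). The order among these 3 genes was therefore not settled beyond the spread between libraries. Atf3 and Jund also could not be ordered (0.14 ± 1.17, adjusted exact permutation p = 0.781), nor could Jund and Fosl2 (1.08 ± 1.44, adjusted exact permutation p = 0.175). The place of Fosb rests on its length: the deposited length of 6243 bases joins all exons, and the longest transcript in GENCODE M21 has 3782. With the longest transcript of each gene, an alternative chosen after seeing the data, Fosb no longer differed from Fos (adjusted exact p = 0.0761), Jun (0.471) or Junb (0.0761). Junb and Jun then did differ (adjusted exact p = 0.0417), and 21 pairs passed.

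**Figure D2:**
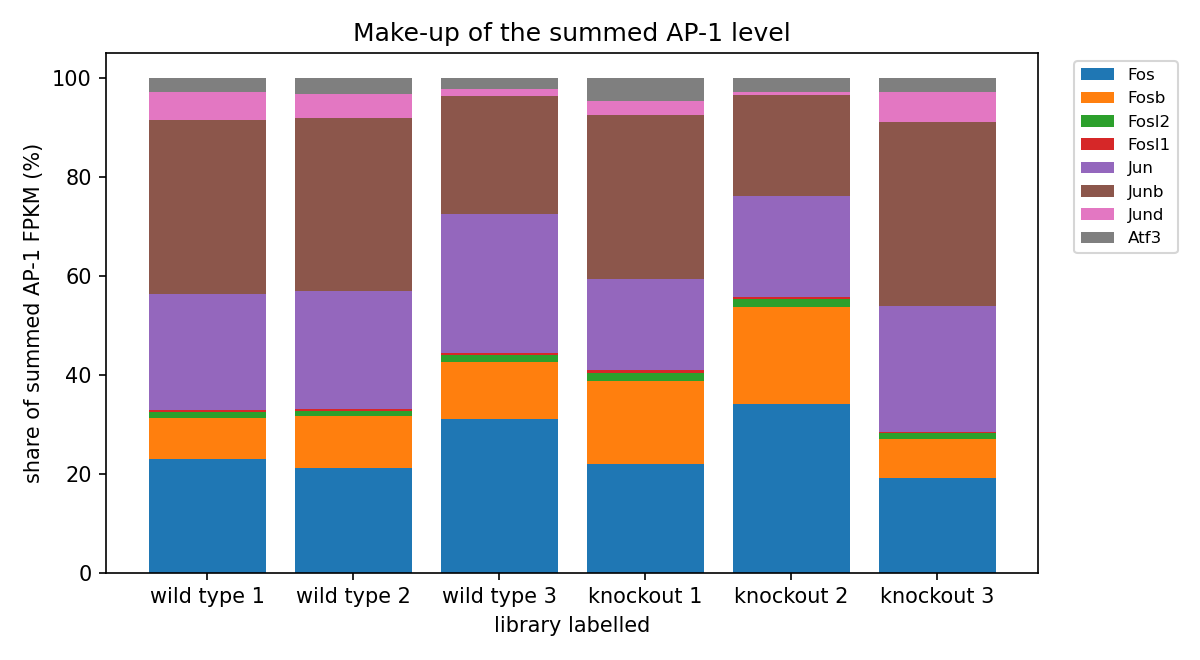
Stacked bars give the share of each AP-1 gene in the summed FPKM of the 8 genes, in percent, for each library. Fos takes 34.1% of the sum in knockout 2 and 19.0% in knockout 3, Fosb 19.6% and 7.99%, and Junb 20.3% and 37.2%.

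The make-up of the family differed between libraries of the same label. Summed over 4 genes, the FOS family stood at 473, 751 and 1275 FPKM in wild type 1 to 3 and at 950, 1621 and 420 FPKM in knockout 1 to 3. The JUN family, summed over 3 genes, stood at 926, 1445 and 1532 FPKM and at 1260, 1207 and 1019 FPKM in the same order. The ratio of FOS to JUN family ran from 0.412 in knockout 3 to 1.34 in knockout 2, and was 0.510, 0.520 and 0.832 in wild type 1 to 3. Over the 6 libraries the JUN sum thus had a narrower range than the FOS sum. The SD of log2(FPKM + 1) over the 6 libraries was 0.26 for Junb, at percentile 30.3 of all tested genes, whose median was 0.38. It was 0.92 for Fosb (percentile 94.0), 0.88 for Jund (92.7), 0.75 for Fosl1 (87.2) and 0.73 for Fos (86.5). Fosl2 (0.62), Atf3 (0.53) and Jun (0.47) lay between, so 7 of the 8 members varied more than the median gene on this scale. The tested genes were not matched to the members for level, and the scale understates changes of low genes.

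**Figure D3:**
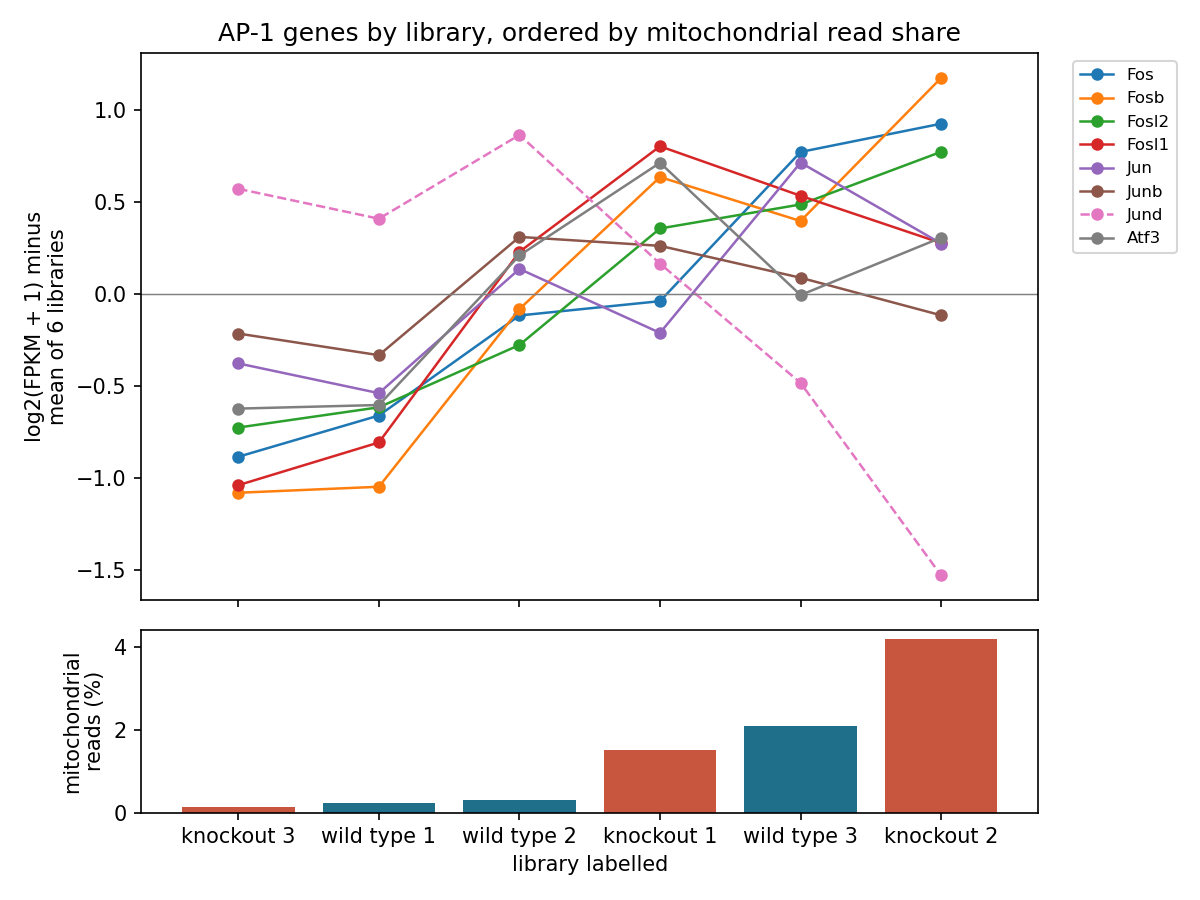
The upper panel plots each gene's log2(FPKM + 1) minus its mean over 6 libraries, and the lower panel the share of mitochondrial reads in percent, with libraries ordered by that share. Fos, Fosb and Fosl2 are lowest in knockout 3 and wild type 1 and highest in knockout 2, whereas Jund (dashed) is lowest in knockout 2.

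Libraries were separated along the same line for most members, and Jund ran the other way. The share of mitochondrial reads, a sign of sample or RNA quality, was lowest in knockout 3 and wild type 1, where 7 of the 8 genes had their 2 lowest values. The slope of gene values on log2 gene length was -0.13, -0.08 and 0.11 in wild type 1 to 3 and 0.04, 0.19 and -0.12 in knockout 1 to 3. Long genes were thus relatively high in knockout 2 and wild type 3. Fosb and Fosl2 are the longest members, at 6243 and 9680 exon bases, and Jund is the shortest, at 1668, against a median of 3639 in the genes tested. Fos, which was highest in those 2 libraries, has 2352 exon bases. Fosl1, at 1707, is nearly as short as Jund, but its 2 lowest values lay in knockout 3 and wild type 1. The GC content of the longest transcript was 67.1% in Jund and 62.6% in Junb, 51.9% to 58.5% in the other 6 members, and all of these lie above the median of tested genes, which is 50%. Red cell markers (5 of 5 tested) summed to 4455, 2793 and 613 FPKM in wild type 1 to 3 and to 756, 473 and 3512 FPKM in knockout 1 to 3, high in the 3 libraries where Fos was lowest. Granulosa markers summed to 12252, 11521 and 6359 FPKM and to 6454, 4570 and 9441 FPKM in the same order. Oocyte markers (6 of 6 tested) summed to 326, 302 and 204 FPKM and to 223, 186 and 294 FPKM. Both sums were thus also highest in wild type 1, wild type 2 and knockout 3, but not every marker in them was. Inha alone made up most of the granulosa sum (10808 FPKM in wild type 1). Inhba, of the granulosa list, and Bmp15, of the oocyte list, were highest in knockout 2 (77.0 and 24.4 FPKM). They were lowest in knockout 3 (19.0 and 2.97 FPKM). Stromal markers (8 of 11 tested) summed to 50.4 to 107 FPKM under the wild-type label and 68.8 to 101 FPKM under the knockout label, and theca markers (4 of 5 tested) to 21.2 to 57.9 and 34 to 39.6 FPKM. Endothelial markers (5 of 6 tested) summed to 6.60 to 15.5 and 12.9 to 18.7 FPKM, and leukocyte markers (3 of 6 tested) to 29.6 to 45.8 and 29.9 to 42.5 FPKM. No marker of these lists was at 0 in every library. The part of quality, length, GC content and other cells in these patterns was not tested. In such bulk samples, fewer cells of a type and less RNA per cell cannot be told apart.

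The genes whose values over the 6 libraries were most like a member's are given with Pearson's r as a description, since 6 points that share depth and one main difference between libraries fit many genes. For Fos these were Ccna2 (r = 0.998), a cyclin of S phase and mitosis, and Sec24c (0.997), a coat protein of transport vesicles. In all, 1939 genes, 15.5% of those tested, had an r over 0.9 with Fos. For Fosb they were Snord53 (0.999), a small nucleolar RNA that ran from 0 to 18.2 FPKM, and Kbtbd2 (0.998). For Fosl2 they were Scaf4 (1.00) and Slc35f5 (0.999). Fosl2 had the largest number over 0.9, 2765 genes or 22.1%. For Jun they were Napepld (0.988) and Scrib (0.984), with 206 genes over 0.9. For Jund they were Tmem11 (1.00) and the pseudogene Tpt1-ps3 (0.995), with 1306 genes. For Fosl1 they were the pseudogene Gm12960 (0.996) and Zfp747 (0.995), with 362 genes. Atf3 was most like Zc3h12a (0.985), an RNase of inflammatory transcripts, and Mir22hg (0.980), with 142 genes. Junb had the fewest, 52 genes or 0.416%, led by the pseudogene Gm5846 (0.984) and Cstb (0.984), a protease inhibitor. Values of pseudogenes are uncertain, since reads of a parent gene can be shared. Among the members, Fosb and Fosl2 (r = 0.97), Fos and Fosl2 (0.94) and Fosl1 and Atf3 (0.93) were most alike, while Jund ran against Fos and Fosl2 (-0.83 each).

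The study's own comparison was the one between the genotype labels, and it gave no call for any of the 8 genes. limma, fitted on all 12495 tested genes, called 0 of the 8 members at an adjusted p under 0.05, against 0% of all tested genes. At an unadjusted p under 0.05 it gave 0 of 8, against 0.728%, and voom weights with limma, fitted to the recovered reads, gave 0 of 8 called. The labels' values did not overlap in 0 of 8 members, against 3.53% of all tested genes.

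Fosb and Jund had the largest differences. Fosb had a mean of 230.1 ± 105 FPKM under the wild-type label and 360 ± 227 FPKM under the knockout label (SD, n = 3 libraries a label), a log2 fold change of 0.49 (SE 0.68, 95% interval -1.14 to 2.11, adjusted p = 0.993 by limma). Jund stood at 77.0 ± 33.6 and 58.6 ± 35.3 FPKM, a log2 fold change of -0.53 (SE 0.62, -2.02 to 0.96, adjusted p = 0.993 by limma). For each of these genes a two-sided exact permutation test gave p = 0.6, where 3 against 3 libraries give no p under 0.1. Fos stood at 568 ± 291 and 595 ± 363 FPKM, with a log2 fold change of 0.0024 and an interval of -1.46 to 1.46. Jun stood at 563 ± 236 and 467 ± 114 FPKM (log2 fold change -0.21, -1.29 to 0.87), and Junb at 661 ± 144 and 637 ± 115 FPKM (-0.05, -0.97 to 0.88). Atf3 stood at 61.6 ± 17.0 and 77.6 ± 33.3 FPKM (0.27, -0.74 to 1.27) and Fosl2 at 26.5 ± 11.3 and 33.4 ± 15.98 FPKM (0.27, -0.85 to 1.39). Fosl1 stood at 8.43 ± 3.97 and 9.17 ± 5.60 FPKM (0.03, -1.30 to 1.35). For Fos, Fosb and Fosl1 the interval reaches past a log2 change of 1 on both sides. For Jund and Jun it does so on the lower side, and for Fosl2 and Atf3 on the upper side. That of Junb alone stays within a log2 change of 1, nearly reaching it at -0.97. These libraries therefore cannot show that any of the 8 genes was alike under both labels.

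**Figure D4:**
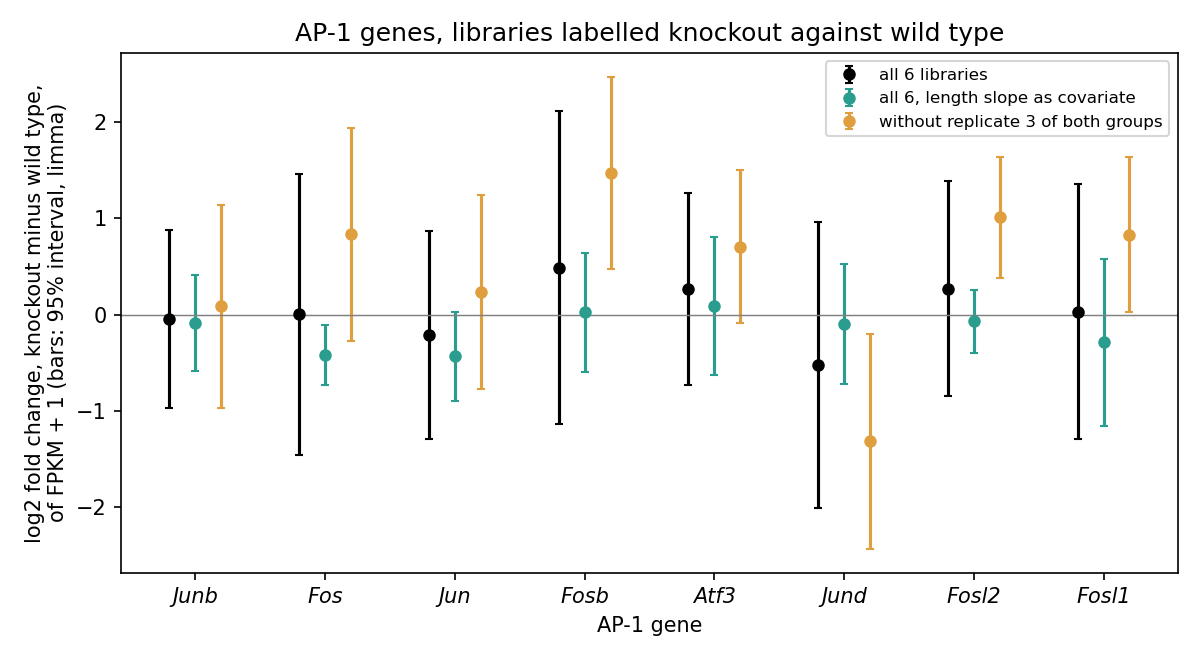
Points give each gene's log2 fold change of FPKM + 1, knockout label minus wild-type label, with the 95% interval of limma, in 3 fits. With all 6 libraries and no covariate every interval includes 0. With the length slope as a covariate that of Fos (-0.73 to -0.10) does not. Without replicate 3 of both groups those of Fosb, Fosl2, Fosl1 and Jund do not. Of all tested genes, 5.02% had an unadjusted p under 0.05 by limma in the fit with the covariate. Without replicate 3 of both groups 44.6% did.

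What the members showed in this comparison turned on which libraries were in it. Without replicate 3 of both groups limma called 2 of the 8 members, Fosb (log2 fold change 1.47, adjusted p = 0.0403) and Fosl2 (1.01, adjusted p = 0.0327), both higher under the knockout label. The same fit called 27.6% of all tested genes, 11.3% as higher, and it sets the 2 wild-type libraries with low mitochondrial shares against 2 knockout libraries with high ones, so label and share cannot be told apart. In that fit Jund had a log2 fold change of -1.32 (adjusted p = 0.0720 by limma). With the slope on gene length as a covariate, limma called 0 of 8, and the log2 fold change of Fosb went from 0.49 to 0.02 and that of Jund from -0.53 to -0.10. That of Fos turned to -0.42 (unadjusted p = 0.0157, adjusted p = 0.925 by limma). In that fit 1 of the 8 members had an unadjusted p under 0.05, against 5.02% of all tested genes. The slope used as the covariate was itself computed from the gene values of these libraries.

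Other genes of the AP-1 pathway were read from lists of partners, regulators and targets. Other bZIP partners, of which 8 of 11 were tested, were led by Mafk (23.2 to 64.9 FPKM), Maff (10.1 to 44.3) and Mafg (12.4 to 18.4), small MAF proteins that lack an activation domain. The values of Mafk and Maff were highest in knockout 1, as for Atf3. limma called 0 of the 8, with a median log2 fold change of 0.14 against -0.04 over all tested genes. Among CREB and SRF regulators (12 of 13 tested), Srf, the factor that binds serum response elements of Fos, stood at 30.8, 52.6 and 37.8 FPKM in wild type 1 to 3 and at 66.0, 46.3 and 38.7 FPKM in knockout 1 to 3. Mef2d (9.27 to 21.5 FPKM) and Crtc2, a coactivator of CREB (12.9 to 15.8 FPKM), followed, and 0 of the 12 were called (median 0.13).

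Kinases of the ERK, JNK and p38 routes (17 of 20 tested) were led by Rps6ka2 (42.8 to 81.4 FPKM), a kinase downstream of ERK, Map2k2 (19.3 to 88.2), which activates ERK, and Mapk3 (37.7 to 65.1), which is ERK1. Map2k2 was low in knockout 2, wild type 3 and knockout 1, the 3 libraries where Jund was also lowest. Of the 17, limma called 0 (median -0.07). Regulators of AP-1 protein (7 of 7 tested) included Cops5 (21.0 to 26.6 FPKM), a JUN-binding subunit of the COP9 signalosome, and Gsk3b (4.001 to 11.1), a kinase that marks JUN for decay. limma called 0 of the 7 (median -0.02).

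Among genes with textbook AP-1 sites (14 of 19 tested), Timp1, an inhibitor of matrix proteases, stood at 1259, 1077 and 397 FPKM in wild type 1 to 3 and at 580, 299 and 1404 FPKM in knockout 1 to 3. It was highest in knockout 3 and wild type 1, where Fos was lowest. Vim, an intermediate filament gene, ranged from 288 to 490 FPKM and Plau, the urokinase gene, from 190 to 384 FPKM. limma called 0 of the 14 (median -0.08). Other early-response genes (15 of 16 tested) included Ier2 at 493 to 2161 FPKM, Ier3 at 281 to 469 and Klf2 at 179 to 479. Ier2 was highest in knockout 3 and lowest in knockout 2, where Fos was lowest and highest. Other genes of the list did not share this pattern. Egr1, Zfp36 and Klf4 were highest in knockout 2 (477, 224 and 168 FPKM), against 250, 89.2 and 22.5 FPKM in knockout 3. Ier3 and Klf2 were highest in wild type 2. Of this list, 11 genes had a log2 fold change above 0 and 4 below (median 0.30), and limma called 0 of 15. Egr2 was listed at 0 in all 6 libraries. In each of the 6 lists limma gave 0 genes at an unadjusted p under 0.05, and the voom fit called 0. Without replicate 3 of both groups, limma called 4 of the other early-response genes higher under the knockout label and 1 lower, and 3 of the kinases higher and 1 lower. It then called 2 of the CREB and SRF regulators, 1 of the bZIP partners and 1 of the protein regulators higher, and 0 of the genes with textbook AP-1 sites in either direction. These counts stand beside the 11.3% of all tested genes called higher and the 16.3% called lower in that fit.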

How the data were processed

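RNA of mouse granulosa cells was sequenced from 6 TruSeq RNA libraries, per the labels' protocols. The deposited tables, 1 for each library, give FPKM per gene with its exon length and coordinates. The submitters' processing notes name HISAT2 2.0.5 and the build mm10. Which counter, strand setting and scaling the authors used is not given in the sources used here. In each library FPKM times length came in whole multiples of a single step (100% of values, within 0.01 reads), which gave reads per gene. The authors' totals were 0.894, 0.939 and 0.904 times these reads in wild type 1, wild type 2 and knockout 3. In wild type 3, knockout 1 and knockout 2, which had the higher mitochondrial shares, they were 1.12 times these reads. FPKM is thus not scaled to the recovered depth alone. The plan named a count test for counts. As the deposited values are FPKM, log2(FPKM + 1) was fitted instead by limma 3.58.1 (R 4.3.3), with a trend and genotype as the only term. This scale understates changes of low genes. Two-sided p-values were adjusted over all tested genes (Benjamini-Hochberg). The test was run on simulated data first. The members, gene lists and alternatives were chosen with earlier results of these data known. Named genes were the 8 members, Gm12840, the 2 genes most like each member, and the 3 most abundant members of each list, of which 1 is not reported here. Fold changes below 0 mean lower in the libraries labelled knockout. Reads of 1 library give intervals for counting error only. Python 3.11.15 and matplotlib 3.10.9 were used for the remaining values and figures.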

Additional observations from a re-analysis of the deposited data

How the results depend on the processing

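limma called 0 of the 8 members in each alternative run except 1. Without replicate 3 of both groups it called 3451 genes, 2 of the members (Fosb 1.47 and Fosl2 1.01) and 13 genes of the pathway lists, and the log2 fold changes of Jun and Junb turned to 0.23 and 0.084. It called 1 gene with the filter at 0.5 FPKM and 1 with the length slope as a covariate, under which Fos turned to -0.42, Fosl1 to -0.29 and Fosl2 to -0.071. Scaling by library totals turned Junb to 0.042. When 1 library was left out, 0 genes, 0 members and 0 list genes were called each time. The log2 fold change then ran from -0.46 to 0.45 for Fos, 0.02 to 1.15 for Fosb, -0.37 to 0.55 for Fosl1, -0.0495 to 0.70 for Fosl2, -0.53 to 0.10 for Jun, -0.22 to 0.10 for Junb, -0.95 to 0.11 for Jund and -0.0252 to 0.64 for Atf3. The cause of these turns was not tested. With the replicate block limma called 0 genes and 0 members. Same-numbered libraries deviated from their group means in opposite ways (r = -0.42, -0.67 and -0.89 over genes), and 0 of 6 libraries were closest to the one with their number, so the numbers gave no sign of pairing. Of the 28 pairs of members, 23 differed in level, and 21 did so both for reads not divided by length and for the longest transcript. These counts do not mean that the order stayed the same. In reads Fosl2 exceeded Atf3 in every library (8502 against 3217 in knockout 2), the reverse of their order in FPKM. With 5 libraries the count was 0 each time, since the smallest p is then 0.0625. edgeR and DESeq2, listed as alternatives on the recovered reads, were not run; limma-voom on those reads called 0 genes. Mean levels scaled by library totals moved by less than 1 SD within a label in each of the 16 cases. These SDs are wide (291 and 363 FPKM for Fos), so the check is weak. Under the knockout label the mean of every member rose, that of Fos from 595 to 644 and that of Fosb from 360 to 393. Under the wild-type label some means rose and some fell.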
